A study of Homo sapiens with 16 samples.

Results

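Genes of glycolysis and of the response to low oxygen were followed in H1, a human embryonic stem cell line in wide use, with and without the growth factor BMP4. The set is a list of 38 gene symbols: 17 glycolytic enzymes, 4 glucose or lactate transporters, 4 regulators of flux and 13 targets of the hypoxia-inducible factors (HIF). Of these, 34 could be tested among 13391 tested genes: all 17 enzymes, 2 transporters, 3 flux regulators and 12 HIF targets. The lactate transporters SLC16A1 and SLC16A3 and the carbonic anhydrase CA9 had no named probe and were not analysed here. PDK1, a kinase that inhibits pyruvate dehydrogenase, had a probe above the detection floor on 0 of 16 arrays, with intensities of 110.1 to 129.2 against a floor of 134.4.

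Glycolysis splits glucose into pyruvate in the cytosol, and lactate dehydrogenase turns pyruvate into lactate. Pluripotent stem cells are known for running this pathway strongly even with oxygen present. HIF1A and EPAS1 are the oxygen-regulated subunits of the HIF factors: with oxygen, prolyl hydroxylases such as EGLN1 and EGLN3 mark them for destruction, and without it they pair with ARNT and switch on glycolytic enzymes, glucose transporters and genes such as BNIP3, VEGFA and P4HA1. HIF binds a short DNA core, ACGTG or GCGTG, called the hypoxia response element.

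The BMP4 arm received 100 ng/ml BMP4 and the untreated arm none; both were grown on Matrigel in mTeSR, a feeder-free stem cell medium, and each has 1 bead array per day on days 0 to 7. There are thus 8 arrays per arm from 1 cell line, and the labels do not say whether days came from separate cultures. Neighbouring days were pooled into days 1 to 3 (n = 3 per arm) and days 4 to 7 (n = 4 per arm), so that the p-values measure the spread between days, time trends included. Levels below are log2 of the background-corrected intensity of a gene's brightest probe, on which a step of 1 is a 2-fold difference, and they are compared only within a gene. Differences are BMP4 minus untreated, from limma with Benjamini-Hochberg adjustment over all 13391 genes and a threshold of 0.05.

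Markers set the arms apart from day 1 on. On days 1 to 3 the summed intensity of 7 primitive streak and mesoderm markers was 2010 to 19300 in the BMP4 arm, against 170 to 363 in untreated cells. In the BMP4 arm on days 4 to 7 this sum was 18000 to 23200, against 177 to 258 in untreated cells, and that of 8 trophoblast and amnion markers was 7630 to 8800, against 171 to 265. On day 0 these sums were low in both arms, at 204 in the BMP4 arm against 139 in the untreated arm for streak and mesoderm, and 183 against 225 for trophoblast and amnion. The summed pluripotency markers on day 0 were 38800 in the BMP4 arm and 33700 in the untreated arm. The labels do not say when on day 0 the BMP4 sample was taken relative to the addition of BMP4.

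Promoter sequences are shown for 6 members described below, so that the hypoxia response core can be seen in place: 4 windows hold several cores and 2 hold none. They were picked after the values were seen, so no link between cores and direction can be read from them. ALDOC, with 5 matches in its window, was higher late, and PGAM1, with 0, was lower in both windows. Each is the RefSeq window of 250 bases before to 50 after the start site in GRCh38.p14, printed 5′ to 3′ on the gene's strand. Capitals mark every ACGTG or GCGTG on either strand, so that CACGT and CACGC are the same cores read on the other strand. CACGTG, which is also the E-box bound by MYC and related factors, counts as a match on each strand.
BNIP3: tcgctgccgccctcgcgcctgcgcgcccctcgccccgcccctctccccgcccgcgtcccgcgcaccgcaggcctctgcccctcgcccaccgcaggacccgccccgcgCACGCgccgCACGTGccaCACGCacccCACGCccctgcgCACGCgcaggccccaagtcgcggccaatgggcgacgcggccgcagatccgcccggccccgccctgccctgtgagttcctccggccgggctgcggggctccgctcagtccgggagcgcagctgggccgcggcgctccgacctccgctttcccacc
ANKRD37: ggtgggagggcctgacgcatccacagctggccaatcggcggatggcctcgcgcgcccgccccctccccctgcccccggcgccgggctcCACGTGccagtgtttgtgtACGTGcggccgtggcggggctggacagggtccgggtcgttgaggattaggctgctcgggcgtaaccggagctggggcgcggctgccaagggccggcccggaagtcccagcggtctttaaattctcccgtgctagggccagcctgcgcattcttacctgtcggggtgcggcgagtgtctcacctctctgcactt
PGK1: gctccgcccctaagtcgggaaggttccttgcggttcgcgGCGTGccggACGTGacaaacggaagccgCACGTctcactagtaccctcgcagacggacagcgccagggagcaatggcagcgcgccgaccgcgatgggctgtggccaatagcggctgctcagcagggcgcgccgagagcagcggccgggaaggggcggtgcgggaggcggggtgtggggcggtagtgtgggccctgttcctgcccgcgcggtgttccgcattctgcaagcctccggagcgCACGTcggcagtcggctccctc
LDHA: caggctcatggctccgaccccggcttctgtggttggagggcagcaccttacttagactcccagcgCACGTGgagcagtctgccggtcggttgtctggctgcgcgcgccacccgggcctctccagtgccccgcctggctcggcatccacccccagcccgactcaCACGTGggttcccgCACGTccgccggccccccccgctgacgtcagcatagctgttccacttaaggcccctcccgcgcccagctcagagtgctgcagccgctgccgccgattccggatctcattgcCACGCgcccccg
EGLN3: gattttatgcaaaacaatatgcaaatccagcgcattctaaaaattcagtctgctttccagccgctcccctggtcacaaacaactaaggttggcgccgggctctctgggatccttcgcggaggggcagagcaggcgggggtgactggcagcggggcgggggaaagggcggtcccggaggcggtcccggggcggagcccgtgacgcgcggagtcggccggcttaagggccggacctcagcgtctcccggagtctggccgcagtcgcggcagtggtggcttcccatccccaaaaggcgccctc
P4HA2: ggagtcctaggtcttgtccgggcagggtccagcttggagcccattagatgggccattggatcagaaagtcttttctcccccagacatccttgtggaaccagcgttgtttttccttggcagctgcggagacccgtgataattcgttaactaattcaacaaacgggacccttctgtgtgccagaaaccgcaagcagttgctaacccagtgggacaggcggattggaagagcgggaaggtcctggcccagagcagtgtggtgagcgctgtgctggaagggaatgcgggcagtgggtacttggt

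The BNIP3 window lies at chr10:131981874-131982173 on the minus strand and holds 6 matches, all before the start site. ANKRD37 at chr4:185396591-185396890 (plus strand) holds 3, PGK1 at chrX:78103998-78104297 (plus strand) holds 4, and LDHA at chr11:18394313-18394612 (plus strand, 1 of its 2 listed windows) holds 6. EGLN3 at chr14:33951025-33951324 and P4HA2 at chr5:132227042-132227341, both on the minus strand, hold 0. Windows were given for 32 of the 38 members, and 29 of these 32 genes (90.6%) had a match in at least 1 window, PGAM1 being the third gene without one. Of tested genes with a window 68.4% had a match, and of all genes with a window 52.4%. By window the members' share was 67.8%, against 58.9% for tested genes and 48.4% for all genes. SLC2A3, SLC16A1, NDRG1, VEGFA, BNIP3L and STC1 are named only.

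The glycolytic enzymes were already lower in the BMP4 arm on the day 0 arrays. All 17 lay below the untreated value, by 0.08 to 1.33 on the log2 scale with a median difference of -0.76, and 10 were at least 1.5-fold lower. Over all tested genes the median day 0 difference was 0.09, with 10.6% at least 1.5-fold lower and 16.1% at least 1.5-fold higher. PKM, pyruvate kinase, had 10.24 in the BMP4 arm and 11.57 in the untreated arm, and ALDOA, the main aldolase, had 12.54 in the BMP4 arm and 13.64 in the untreated arm. With 1 array per arm on day 0 there is no replicate check of these differences.

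The HIF targets differed more widely on day 0, and 10 of 12 lay below the untreated value. Their median difference was -1.16, with 8 at least 1.5-fold lower. BNIP3, a receptor that sends mitochondria into autophagy, had 9.44 in the BMP4 arm and 11.42 in the untreated arm. EGLN1 had 4.87 in the BMP4 arm, under the floor of 5.05, and 6.78 in the untreated arm. EGLN3, the other prolyl hydroxylase, went the opposite way, with 5.88 in the BMP4 arm and 4.59 in the untreated arm, there below the floor. VEGFA was the other target above untreated on day 0, by 0.47. Against the mean of its own arm's days 1 to 3, the BMP4 day 0 array differed by -0.45 to 0.76 over the enzymes and by -0.87 (NDRG1) to 1.89 (STC1) over the HIF targets. The streak and mesoderm markers differed by a median of -4.17 in that comparison.

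**Figure D1:**
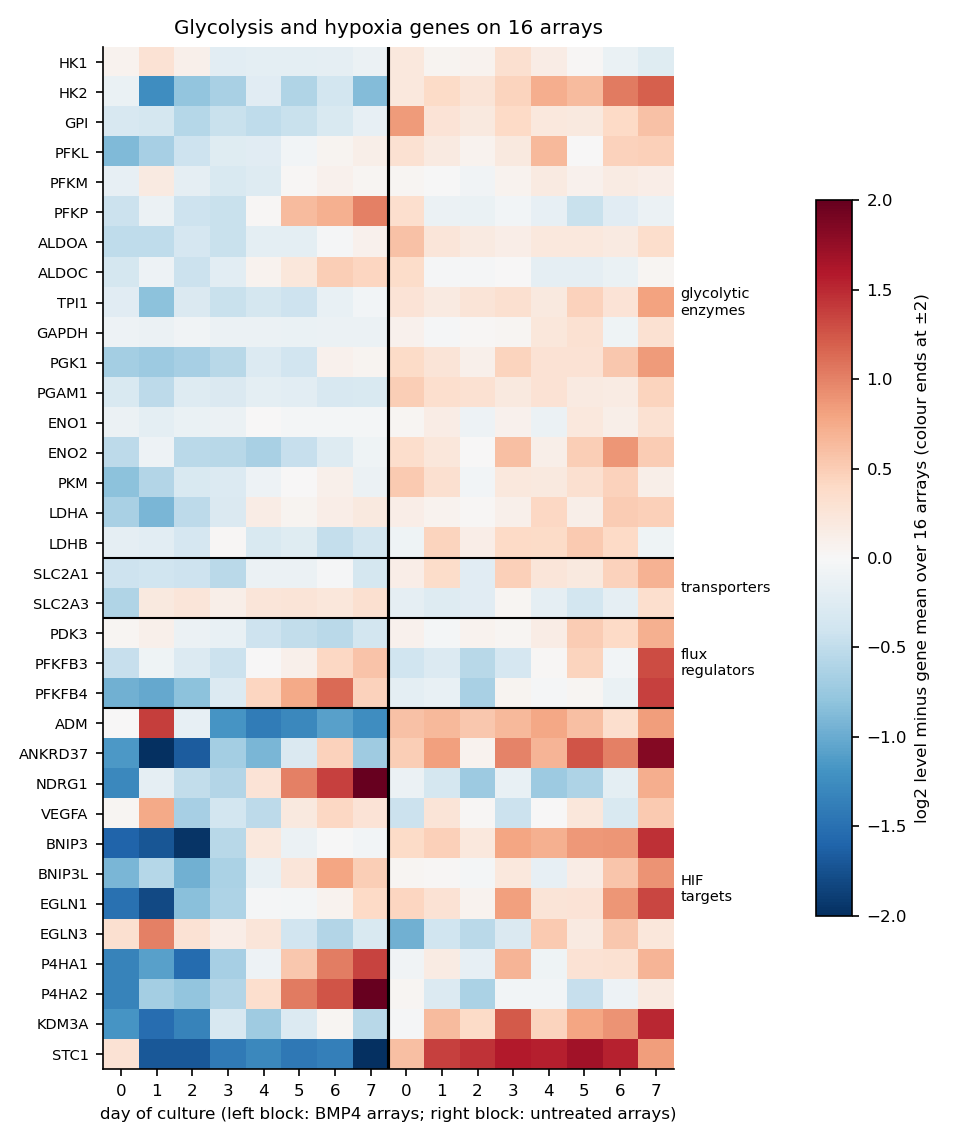
Log2 level of each tested gene minus its mean over the 16 arrays (colour), by gene (rows, in 4 classes) and by day (columns), with the BMP4 arrays left and the untreated arrays right. Most enzymes and HIF targets are blue in the BMP4 block from day 0, while NDRG1, P4HA1, P4HA2 and PFKFB4 turn red there from day 4 or 5.

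By day, the median of the enzymes' gaps between the arms narrowed, while both classes stayed lower under BMP4 in the median. The median enzyme gap was -0.76, -0.64, -0.48, -0.48, -0.44, -0.39, -0.38 and -0.35 from day 0 to day 7. The median gap of the HIF targets was -1.16, -0.92, -0.91 and -1.35 on days 0 to 3, and -0.39, -0.44, -0.68 and -0.74 on days 4 to 7. It was thus smaller on each of days 4 to 7 than on any earlier day. Over the 7 days from day 1, 12 of 17 enzymes and 5 of 12 HIF targets were below untreated on every day, against 18.4% of all tested genes. No member was above untreated on every one of those days, against 20.0% of all tested genes.

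Within the BMP4 arm the HIF targets moved relative to the enzymes. Measured as log2 level minus each gene's mean over 16 arrays, the HIF median minus the enzyme median was -0.84 on day 0, -0.52 on day 1, -0.56 on day 2 and -0.32 on day 3 in BMP4 cells. From day 4 to day 7 it was 0.08, 0.11, 0.28 and 0.16, so that each later value was above each of the earlier ones. The zero of this measure is set by the centring and has no meaning of its own. In untreated cells the same measure was -0.27, 0.09, -0.03, 0.47, 0.14, 0.08, 0.28 and 0.48 from day 0 to day 7. The difference between the arms in this course was not tested.

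**Figure D2:**
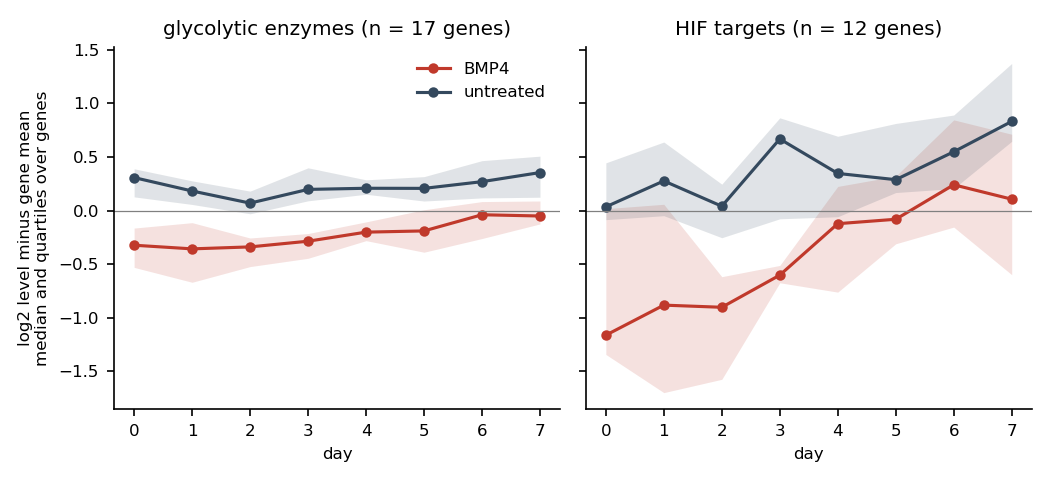
Median over genes (points) and quartiles (bands) of log2 level minus gene mean, by day, for the 17 enzymes (left) and the 12 HIF targets (right), BMP4 in red and untreated in dark blue. The enzyme medians stay apart on all 8 days, and the HIF medians differ most on days 0 to 3.

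On days 1 to 3, 11 of 17 enzymes were lower under BMP4 and 0 were higher by limma. At an unadjusted p under 0.05 the same counts were 11 and 0. Over all tested genes 13.3% were called lower and 16.1% higher. The median enzyme difference was -0.59, against 0.04 over all tested genes. With the day 0 gap subtracted 0 of 17 enzymes were lower and 0 higher by limma (1 and 2 at an unadjusted p under 0.05), their median was 0.16, and 8 of the 11 calls turned to positive values. Over all tested genes 1.30% were lower and 1.05% higher in that comparison. In bulk samples, fewer cells of a type and less RNA per cell cannot be told apart.

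HK2, the inducible hexokinase that traps glucose in the cell, had the largest enzyme difference in both windows. It had 7.57, 8.04 and 8.16 in BMP4 cells on days 1 to 3, against 9.20, 9.07 and 9.26 in untreated cells, and the arms did not overlap. The mean was lower by 2.39-fold (log2 difference -1.25, SE 0.19, adjusted p = 0.000138). On days 4 to 7 HK2 had 8.60, 8.22, 8.45 and 7.94 in BMP4 cells, against 9.54, 9.44, 9.86 and 10.01 in untreated cells. There it was 2.66-fold lower (log2 difference -1.41, SE 0.16, adjusted p = 1.77e-06). HK1, the widely expressed hexokinase, had differences of -0.09 and -0.13 in the early and late windows that did not pass.

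PGK1, which makes the first ATP of the pathway, had 11.90, 11.95 and 12.06 in BMP4 cells on days 1 to 3, against 12.88, 12.72 and 13.06 in untreated cells. This was 1.89-fold lower (log2 difference -0.92, SE 0.15, adjusted p = 0.000272). TPI1, which interconverts the triose phosphates, had 12.51, 13.03 and 12.88 in BMP4 cells, against 13.51, 13.58 and 13.64 in untreated cells, or 1.71-fold lower (log2 difference -0.77, SE 0.15, adjusted p = 0.00104). For neither gene did the arms overlap. The other enzymes lower on days 1 to 3 were GPI, PFKL, ALDOA, PGAM1, ENO2, PKM, LDHA and LDHB, with differences of -0.50 to -0.75. ENO2 and LDHB lost their call when 1 array was left out, ENO2 at -0.52 (adjusted p = 0.0928) without untreated day 3 and at -0.60 without BMP4 day 2 or day 3, and LDHB at -0.42, -0.44 and -0.46 without BMP4 day 2, untreated day 1 or untreated day 3.

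On days 4 to 7, 11 of 17 enzymes were again lower and 2 were higher, against 26.6% lower and 27.3% higher over all tested genes. With the day 0 gap subtracted 0 were lower and 4 higher, against 10.6% and 8.92% of all tested genes in that comparison. ENO2, the enolase named for neurons, had 8.93, 9.11, 9.32 and 9.49 in BMP4 cells, against 9.70, 10.07, 10.47 and 10.09 in untreated cells. It was 1.83-fold lower with no overlap (log2 difference -0.87, SE 0.17, adjusted p = 0.000368). PFKP and ALDOC, the platelet-type phosphofructokinase and the brain-type aldolase, were the higher enzymes. PFKP had 10.88, 11.49, 11.58 and 11.87 in BMP4 cells, against 10.70, 10.42, 10.63 and 10.76 in untreated cells, or 1.78-fold higher (log2 difference 0.83, SE 0.15, adjusted p = 0.000224). The lowest BMP4 value of PFKP, on day 4, lay just above the highest untreated one. Also lower late were GPI (-0.71), TPI1 (-0.67), PGK1 (-0.62) and PGAM1 (-0.53), with adjusted p of 0.00066 or less.

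At 2 steps isoforms lay on opposite sides late. Of the phosphofructokinases, PFKP was higher (0.83), PFKL was lower (-0.42, adjusted p = 0.0172) and PFKM did not pass (-0.17, adjusted p = 0.212). Of the aldolases, ALDOC was higher (0.42, adjusted p = 0.00252) and ALDOA lower (-0.32, adjusted p = 0.00222). With the day 0 gap subtracted ALDOA was instead at 0.78 (adjusted p = 0.00686) and PFKL at 0.77 (adjusted p = 0.0932). Of the lactate dehydrogenases, LDHB was lower (-0.66, adjusted p = 0.000219) and LDHA had the same sign without passing (-0.25, adjusted p = 0.0658), and whether they differed was not tested. The PFKL call was lost without untreated day 4 (-0.34, adjusted p = 0.066). The late PKM call (-0.31, adjusted p = 0.0225) was lost without untreated day 5 (-0.29), untreated day 6 (-0.24) or BMP4 day 7 (-0.28), with the mean over probes (-0.29, adjusted p = 0.0532) and with windows of days 1 to 2 and 5 to 7 (-0.31, adjusted p = 0.0502), and it turned to 1.03 (adjusted p = 0.00818) with the day 0 gap subtracted. LDHA passed with the mean over probes (-0.42, adjusted p = 0.00368) and with housekeeping centring (-0.37, adjusted p = 0.00581). It also passed without untreated day 5 (-0.34), BMP4 day 1 or BMP4 day 3 (-0.25 each).

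GAPDH and ENO1 are among the brightest probes, and their levels spread little. GAPDH had 14.03, 14.02, 14.03 and 14.03 in BMP4 cells on days 4 to 7, against 14.38, 14.45, 14.07 and 14.46 in untreated cells, a late difference of -0.31 (SE 0.08, adjusted p = 0.00263). Its other probes gave late differences of 0.05 and -0.54, so the GAPDH result depends on the probe. ENO1 did not pass in either window (-0.20 and -0.16), but passed late without untreated day 4 (-0.24, adjusted p = 0.013). For PGAM1, phosphoglycerate mutase, the second probe gave a larger early difference of -1.19, against -0.63 on the probe used.

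The gap between the arms changed between the windows for 2 enzymes, both upward, against 4.93% of all tested genes upward and 4.31% downward. PFKP shifted by 1.06 (SE 0.24, adjusted p = 0.0103) and ALDOC by 0.65 (SE 0.16, adjusted p = 0.0163). Without BMP4 day 2 the ALDOC shift was 0.56 (adjusted p = 0.0566). Within the BMP4 arm, 6 enzymes rose between the windows and 0 fell by limma, with 8 and 0 at an unadjusted p under 0.05, against 12.8% rising and 13.7% falling over all tested genes. The 6 were PFKP (0.92), LDHA (0.70), ALDOC (0.55), PGK1 (0.51), PKM (0.36) and ALDOA (0.35). PKM lost this call without BMP4 day 1 (0.26), day 5 (0.34) or day 6 (0.31), and PFKL (0.41, adjusted p = 0.0531) gained one without BMP4 day 3 (0.51), BMP4 day 4 (0.48) or untreated day 5 (0.41).

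Both measured glucose transporters were bright, and on days 4 to 7 their differences from untreated cells had opposite signs. SLC2A1, the basal glucose carrier, had 11.29, 11.28 and 11.15 in BMP4 cells on days 1 to 3, against 12.07, 11.47 and 12.17 in untreated cells. On days 4 to 7 it had 11.58, 11.58, 11.68 and 11.34 in BMP4 cells, against 11.93, 11.90, 12.16 and 12.40 in untreated cells. It was lower in both windows without overlap, by 1.58-fold early (log2 difference -0.66, SE 0.16, adjusted p = 0.0055) and 1.47-fold late (-0.55, SE 0.14, adjusted p = 0.00289). The early call was lost with a window of days 1 to 2 (-0.48, adjusted p = 0.076), and with the day 0 gap subtracted the differences were -0.11 (adjusted p = 0.898) and -0.001 (adjusted p = 0.998). SLC2A3, a high-affinity glucose carrier, had 14.13, 14.13, 14.11 and 14.20 in BMP4 cells on days 4 to 7, against 13.69, 13.52, 13.70 and 14.21 in untreated cells. It was 1.29-fold higher (log2 difference 0.36, SE 0.11, adjusted p = 0.0115), although untreated day 7 reached the BMP4 values. The call was lost without untreated day 5 (0.28, adjusted p = 0.0506) and when arrays were centred on housekeeping genes (0.24, adjusted p = 0.0863), and the early difference of 0.33 (adjusted p = 0.0619) passed without untreated day 3 (0.43), day 5 (0.33) or day 7 (0.33). On day 0 SLC2A3 differed by -0.42. With that gap subtracted its differences were 0.76 early (adjusted p = 0.132) and 0.79 late (adjusted p = 0.0369).

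Among the flux regulators, 0 of 3 passed on days 1 to 3, adjusted or unadjusted. PDK3, a kinase that shuts pyruvate dehydrogenase and so keeps pyruvate out of mitochondria, had 9.44, 9.23 and 9.20 in BMP4 cells on those days, against 9.31, 9.41 and 9.39 in untreated cells, which overlapped. On days 4 to 7 it had 8.93, 8.84, 8.80 and 8.98 in BMP4 cells, against 9.49, 9.86, 9.75 and 10.06 in untreated cells. This was 1.86-fold lower with no overlap (log2 difference -0.90, SE 0.12, adjusted p = 5.15e-06), and the shift between the windows passed too (-0.82, adjusted p = 0.00837), though not with the mean over probes (-0.40, adjusted p = 0.159). A second PDK3 probe was already lower on days 1 to 3, at -0.84, so only the late difference is shared by both probes.

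PFKFB3 and PFKFB4 make and remove the sugar phosphate that activates phosphofructokinase. Neither differed between the arms at the threshold in either window, with PFKFB3 at 0.13 early and -0.15 late. A second, dimmer PFKFB3 probe gave 0.69 early and 0.61 late, so the PFKFB3 values depend on the probe. PFKFB4 had 9.89, 10.23, 10.60 and 9.93 in BMP4 cells on days 4 to 7, against 9.45, 9.51, 9.33 and 10.84 in untreated cells. Its late difference of 0.38 (adjusted p = 0.258) became 0.73 (adjusted p = 0.00649) without untreated day 7. Within the BMP4 arm PFKFB4 rose 2.64-fold between the windows (log2 difference 1.40, SE 0.30, adjusted p = 0.00247).

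On days 1 to 3, 7 of 12 HIF targets were lower under BMP4 and 1 was higher, with a median difference of -1.06, against 13.3% lower and 16.1% higher over all tested genes. With the day 0 gap subtracted 1 of 12 (STC1) was lower and 0 higher, against 1.30% and 1.05% of all tested genes, with a median of -0.04. The 7 were STC1, ANKRD37, BNIP3, KDM3A, EGLN1, P4HA1 and BNIP3L. STC1, a secreted glycoprotein hormone, had 6.96, 6.97 and 7.24 in BMP4 cells, against 10.02, 10.10 and 10.24 in untreated cells. It was 8.35-fold lower (log2 difference -3.06, SE 0.21, adjusted p = 2.99e-08), the largest difference of any member in either window. Its day 0 levels were closer together, at 8.94 in the BMP4 arm and 9.26 in the untreated arm.

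ANKRD37, a small ankyrin-repeat protein, had 4.66, 5.23 and 6.20 in BMP4 cells on days 1 to 3, against 7.71, 6.95 and 7.88 in untreated cells. It was 4.44-fold lower (log2 difference -2.15, SE 0.39, adjusted p = 0.000637), with BMP4 day 1 under the floor. BNIP3 had 9.33, 9.07 and 10.47 in BMP4 cells, against 11.51, 11.24 and 11.81 in untreated cells, or 3.73-fold lower (log2 difference -1.90, SE 0.27, adjusted p = 7.32e-05). Both genes lay below every untreated value, and their day 3 values were the highest of the 3 BMP4 days. KDM3A, a histone demethylase, had 4.70, 4.88 and 5.90 in BMP4 cells, against 6.86, 6.60 and 7.45 in untreated cells. With only 1 of those BMP4 values above the floor, its difference of -1.81 (SE 0.32, adjusted p = 0.000494) is the less exact.

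EGLN1 differed by -1.48 (SE 0.31, adjusted p = 0.00198), P4HA1 by -1.33 (SE 0.31, adjusted p = 0.00424) and BNIP3L by -0.78 (SE 0.24, adjusted p = 0.0201). BNIP3L, a mitophagy receptor like BNIP3, lost its call without BMP4 day 2 (-0.66, adjusted p = 0.0857) or untreated day 3 (-0.71, adjusted p = 0.0768). EGLN3 was the member that was higher early: it had 6.57, 5.84 and 5.69 in BMP4 cells, against 5.16, 5.02 and 5.27 in untreated cells (log2 difference 0.89, SE 0.24, adjusted p = 0.00978). ADM, the vasodilator peptide adrenomedullin, had 13.02, 11.47 and 10.45 in BMP4 cells, against 12.28, 12.17 and 12.28 in untreated cells. BMP4 day 1 lay above and the next BMP4 days below the untreated values, and the difference of -0.60 (adjusted p = 0.257) became -1.29 (adjusted p = 0.000229) without that array. VEGFA, the angiogenic growth factor, and NDRG1, a stress-responsive protein, did not differ at the threshold early (-0.04 and -0.01).

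**Figure D3:**
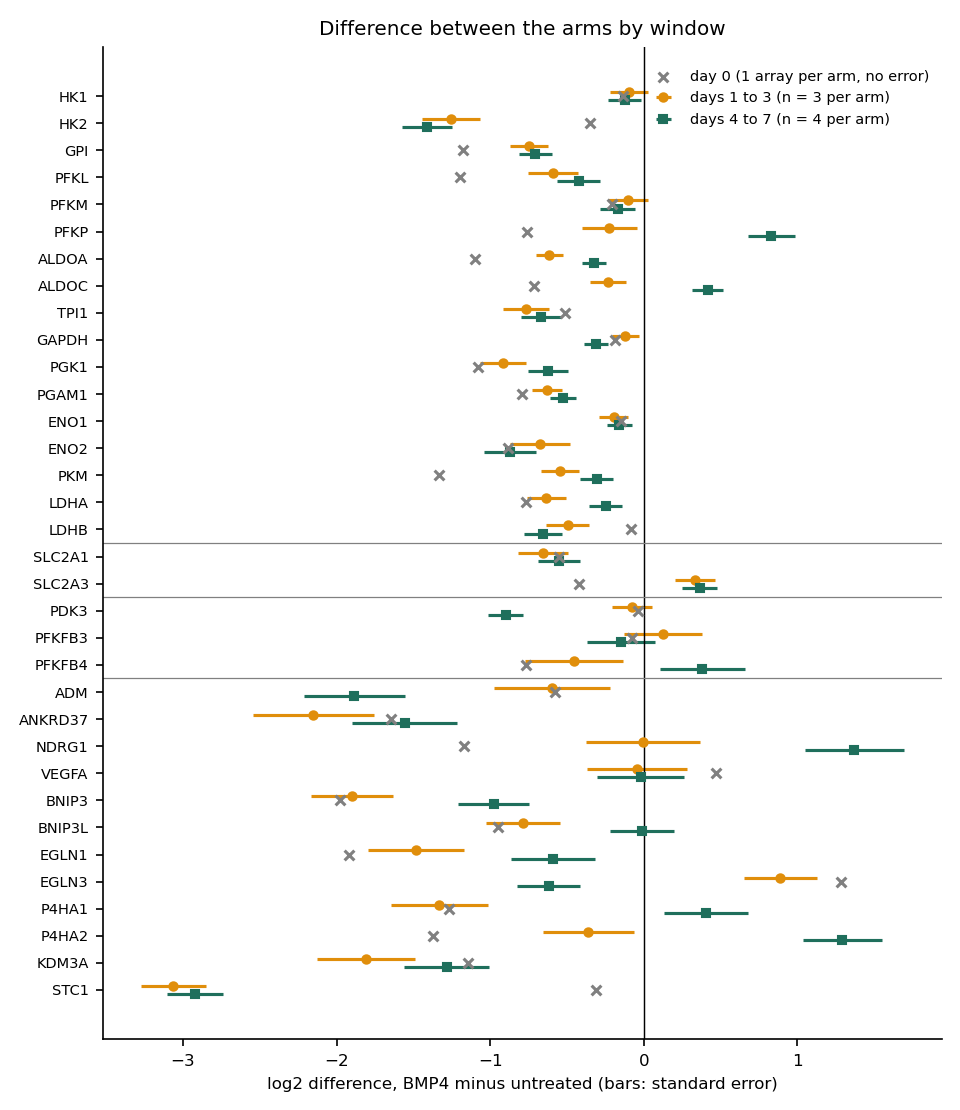
Log2 difference, BMP4 minus untreated, for each tested gene on day 0 (crosses, 1 array per arm), on days 1 to 3 (circles, n = 3 per arm) and on days 4 to 7 (squares, n = 4 per arm), with standard errors from limma as bars. STC1 lies at -3.06 and -2.92 in the windows and at -0.31 on day 0, and NDRG1, P4HA2 and PFKP lie right of 0 only on days 4 to 7.

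On days 4 to 7, 6 of 12 HIF targets were lower and 2 were higher, against 26.6% and 27.3% of all tested genes. Their median difference was -0.61, against 0.00 over all tested genes. With the day 0 gap subtracted 2 were lower, STC1 (-2.61) and EGLN3 (-1.91), and 2 higher, NDRG1 (2.54) and P4HA2 (2.67). Over all tested genes 10.6% were lower and 8.92% higher in that comparison. ADM (-1.31, adjusted p = 0.225), ANKRD37 (0.09), KDM3A (-0.14) and BNIP3 (1.00) then did not pass. STC1 had 7.38, 7.23, 7.29 and 6.64 in BMP4 cells, against 10.21, 10.34, 10.19 and 9.49 in untreated cells. It was 7.58-fold lower (log2 difference -2.92, SE 0.18, adjusted p = 2.86e-09). ADM had 10.24, 10.34, 10.55 and 10.39 in BMP4 cells, against 12.41, 12.23, 11.96 and 12.46 in untreated cells, or 3.70-fold lower (log2 difference -1.89, SE 0.33, adjusted p = 0.000124). ANKRD37 had 5.98, 6.60, 7.36 and 6.18 in BMP4 cells, against 7.57, 8.14, 7.90 and 8.73 in untreated cells, or 2.94-fold lower (log2 difference -1.56, SE 0.34, adjusted p = 0.000938). In each of the 3 genes all BMP4 values lay below all untreated ones.

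KDM3A (-1.28, adjusted p = 0.00083) and BNIP3 (-0.98, adjusted p = 0.00177) also stayed lower late. EGLN1 (-0.59, adjusted p = 0.0753), BNIP3L (-0.01) and VEGFA (-0.02) did not pass, although EGLN1 passed without BMP4 day 1 (-0.59), untreated day 4 (-0.74) or untreated day 5 (-0.73), with housekeeping centring (-0.71), without background correction (-0.32) and with days 5 to 7 (-0.69). EGLN3 changed sides: on days 4 to 7 it had 5.81, 5.18, 4.98 and 5.25 in BMP4 cells, against 6.08, 5.73, 6.09 and 5.79 in untreated cells, with an overlap on BMP4 day 4. Its late difference was -0.62 (adjusted p = 0.0173), and its shift between the windows was -1.51 (SE 0.31, adjusted p = 0.00705). With the day 0 gap subtracted EGLN3 was negative in both windows, at -0.40 early (adjusted p = 0.7) and -1.91 late (adjusted p = 0.00966). The levels of EGLN3 are close to the floor, with 3 of 16 arrays below it, and the late call was lost without BMP4 day 6 (-0.51, adjusted p = 0.0639).

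The higher HIF targets were NDRG1 and P4HA2. NDRG1 had 7.37, 8.10, 8.46 and 9.12 in BMP4 cells on days 4 to 7, against 6.37, 6.48, 6.91 and 7.82 in untreated cells, which overlap on untreated day 7. The difference was 2.58-fold (log2 1.37, SE 0.32, adjusted p = 0.00176). P4HA2 and P4HA1 are catalytic subunits of the enzyme that hydroxylates collagen in the endoplasmic reticulum. P4HA2 had 8.64, 9.34, 9.55 and 10.40 in BMP4 cells, against 8.25, 7.84, 8.20 and 8.47 in untreated cells, or 2.45-fold higher with no overlap (log2 difference 1.29, SE 0.26, adjusted p = 0.00042). Its other probes gave late differences of 1.65 and 1.03.

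P4HA1, lower early, was no longer lower late. It had 8.32, 8.97, 9.45 and 9.78 in BMP4 cells on days 4 to 7, against 8.34, 8.72, 8.73 and 9.11 in untreated cells. The late difference of 0.40 (adjusted p = 0.222) passed without BMP4 day 4 (0.67, adjusted p = 0.0224) and with a late window of days 5 to 7 (0.54, adjusted p = 0.0297). The shift between the windows was 1.73 for P4HA1 (SE 0.41, adjusted p = 0.015) and 1.65 for P4HA2 (SE 0.39, adjusted p = 0.0146). Without BMP4 day 2 or untreated day 3 the P4HA1 shift just missed the threshold (1.51 each, adjusted p = 0.0544 and 0.0517). The shifts of NDRG1 (1.38), ADM (-1.29), BNIP3 (0.92) and BNIP3L (0.77) did not pass with all arrays. They passed with 1 array left out, NDRG1 without BMP4 day 4 (1.67) or untreated day 7 (1.68), ADM (-1.89) and BNIP3 (1.35) without BMP4 day 3, and BNIP3L without BMP4 day 4 (0.94).

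Within the BMP4 arm 7 of 12 HIF targets rose between the windows and 2 fell, against 12.8% and 13.7% of all tested genes. The rises were 1.87 for P4HA2, 1.80 for P4HA1, 1.58 for NDRG1, 1.42 for BNIP3, 1.18 for EGLN1, 1.17 for ANKRD37 and 1.06 for BNIP3L, all with adjusted p under the threshold. ADM fell by 1.27 (adjusted p = 0.0144) and EGLN3 fell by 0.73 (adjusted p = 0.0225). The ANKRD37 rise was lost without BMP4 day 1 (0.81), day 2 (1.10), day 5 (1.14) or day 6 (0.89). The falls of EGLN3 and of PDK3 (-0.40, adjusted p = 0.0247) were lost without BMP4 day 1 (-0.47 and -0.33), day 5 (-0.69 and -0.39) or day 6 (-0.62 and -0.37), PDK3 also without day 2 (-0.43) and with the mean over its probes (-0.11, adjusted p = 0.529), and KDM3A (0.69) gained a call without BMP4 day 3 (1.05). STC1 differed by 0.08 between the windows (adjusted p = 0.814).

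**Figure D4:**
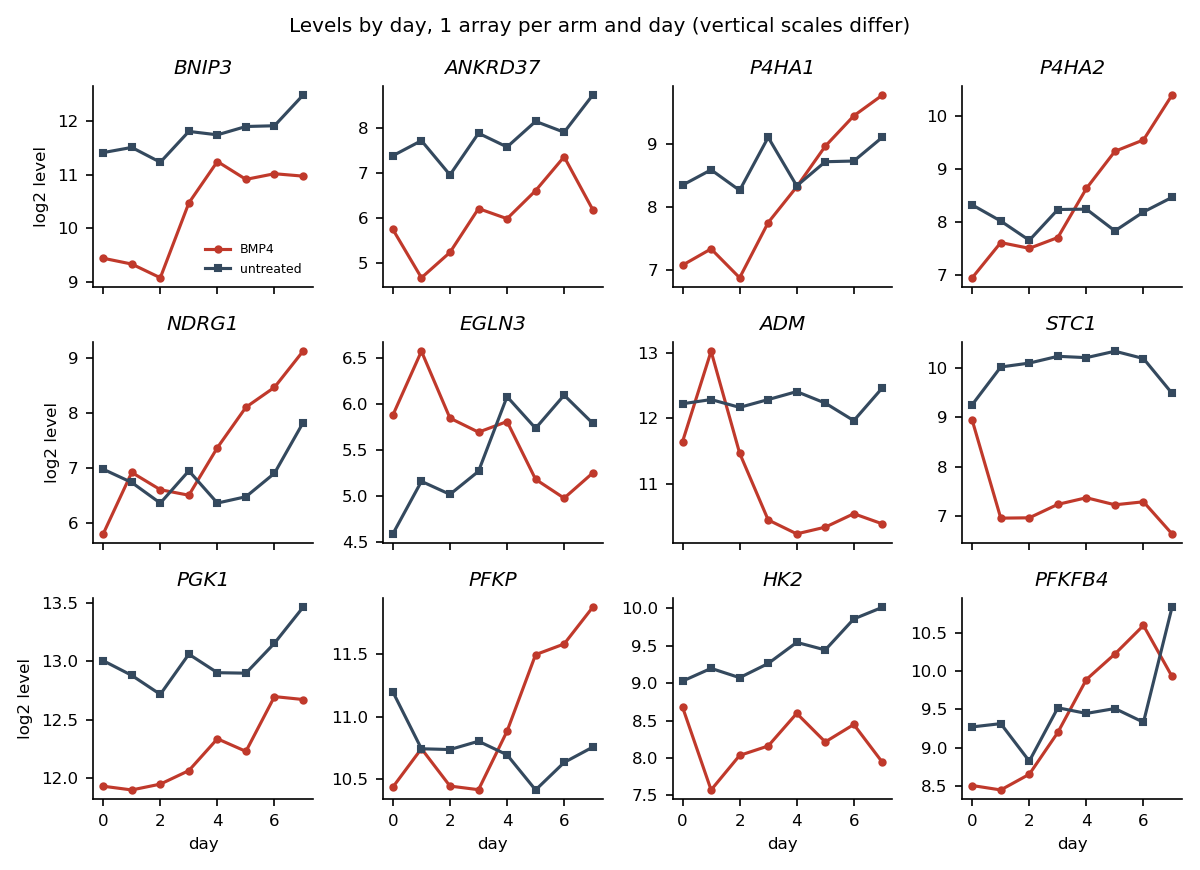
Log2 level by day for 12 genes, 1 array per arm and day, BMP4 as red circles and untreated as dark blue squares (vertical scales differ). BNIP3 and PGK1 start apart on day 0 and climb under BMP4, and P4HA1, P4HA2, NDRG1 and PFKP cross the untreated line. Under BMP4 STC1 drops by day 1, while ADM rises on day 1 and then falls to day 3.

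In all, 19 of 34 members were lower and 1 was higher on days 1 to 3, and 19 were lower and 5 higher on days 4 to 7. Of the 19 lower early, 15 were also lower late and 0 were higher late. Of the same 19, 14 were among the 19 members at least 1.5-fold lower on day 0, an overlap between different arrays of the same arms. Neither overlap was counted over all tested genes, so neither can be read as particular to the members. With the day 0 gap subtracted, 0 members were higher and 1 was lower early, against 1.05% and 1.30% of all tested genes, and the 1 was STC1 (-2.75). Late, 7 were then higher and 3 lower, against 8.92% and 10.6% of all tested genes. These differences rest on 1 day 0 array per arm. Of all genes called early 54.8% were higher, or 40.1% when arrays were centred on housekeeping genes, and late the shares were 50.7% and 39.2%. That centring shifted the late median of all tested genes to -0.12, and 20 members were then lower early and 23 late. The housekeeping genes were themselves not stable. Of 8 tested, 3 were higher and 3 lower early, against 16.1% and 13.3% of all tested genes. Late 3 were higher and 2 lower, against 27.3% and 26.6%.

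In untreated cells 0 of 34 members changed between the windows by limma, against 0.0747% of all tested genes called higher and 0 lower. At an unadjusted p under 0.05, 5 members were higher and 0 lower, against 496 and 513 of all 13391. The untreated day 7 array nevertheless stood apart for HIF targets, as was seen only after the values were examined. Compared with the mean of untreated days 4 to 6, 6 of 12 HIF targets were at least 1.5-fold higher and 1 was lower, against 3.35% and 2.79% of all tested genes. The differences were 1.24 for NDRG1, 0.87 for EGLN1, 0.86 for ANKRD37, 0.80 for KDM3A, 0.72 for BNIP3L and 0.64 for BNIP3, with STC1 at -0.76. PFKFB4 (1.41) and PFKFB3 (1.17) were higher as well, whereas 0 of 17 enzymes reached 1.5-fold. In the neural marker list 4 of 5 genes were also at least 1.5-fold higher on that array, and their part in the HIF result was not tested. In the same comparison of BMP4 day 7 with BMP4 days 4 to 6, 3 of 12 HIF targets were at least 1.5-fold higher and 1 was lower. Over all 13391 tested genes 698 were higher and 320 lower there. The 3 were P4HA2 (1.22), NDRG1 (1.14) and P4HA1 (0.86), and the lower one was STC1 (-0.66).

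Among the HIF factors, EPAS1 and HIF1A differed between the arms. Of 15 genes of HIF subunits and oxygen sensing, all tested, 2 were higher and 3 lower early, and 4 higher and 7 lower late, against 16.1% and 13.3% of all tested genes early and 27.3% and 26.6% late. The early counts and the late count of higher genes are near those shares. EPAS1 had 5.15, 6.06 and 8.44 in BMP4 cells on days 1 to 3, and 9.51, 9.39, 9.21 and 9.10 on days 4 to 7. In untreated cells it had 5.05, 5.81 and 4.51 on days 1 to 3 and 5.24, 5.08, 5.27 and 5.28 on days 4 to 7, close to the floor of 5.05. The late difference was 16.96-fold (log2 4.08, SE 0.46, adjusted p = 1.32e-06). HIF1A had 7.79, 7.93 and 7.61 in BMP4 cells on days 1 to 3, against 8.49, 8.64 and 8.41 in untreated cells, or 1.67-fold lower (log2 difference -0.74, adjusted p = 0.000484), and the late difference was smaller (-0.30, adjusted p = 0.0341). The arrays report mRNA, whereas HIF subunits are regulated largely as proteins. EP300 (-1.15, adjusted p = 1.67e-06), a coactivator of HIF, and CITED2 (-1.03, adjusted p = 4.36e-06), which competes with HIF for it, were lower late. With the day 0 gap subtracted EPAS1 (3.64, adjusted p = 0.021) and CITED2 (-0.94, adjusted p = 0.0324) still passed late. EP300 (-0.76, adjusted p = 0.0816) then did not, nor did HIF1A early (-0.73, adjusted p = 0.146) or late (-0.29, adjusted p = 0.446).

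Further HIF targets also lay on both sides. Of 29 tested, 5 were higher and 9 lower early, against 16.1% and 13.3% of all tested genes. Late 12 were higher and 12 lower, against 27.3% and 26.6%. Within the BMP4 arm 12 rose and 2 fell, against 12.8% and 13.7%. The largest late differences were in EFNA1 (2.83, adjusted p = 1.77e-08), an ephrin ligand, LOX (2.63, adjusted p = 9.67e-06), which crosslinks collagen, and ANGPTL4 (2.22, adjusted p = 2.44e-05), an inhibitor of lipoprotein lipase. On day 0 these 3 had differences of -0.25, -0.24 and -0.75. Of 16 other tested glycolysis genes, 4 were higher and 1 lower early, and 5 higher and 4 lower late, counts near the shares of all tested genes late. They included the glucose carriers SLC2A6 (1.15, adjusted p = 0.000159) and SLC2A8 (0.85, adjusted p = 2.33e-06) and the D-lactate dehydrogenase LDHD (-1.38, adjusted p = 0.000508). On day 0 SLC2A6 already differed by 0.92, SLC2A8 by 0.43 and LDHD by 0.26. With that gap subtracted SLC2A6 (0.23, adjusted p = 0.758), SLC2A8 (0.42, adjusted p = 0.201) and LDHD (-1.63, adjusted p = 0.0758) did not pass late.

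Pathways that branch from glycolysis held genes on both sides late. Their late counts are to be read against 27.3% higher and 26.6% lower over all tested genes, and their early counts against 16.1% and 13.3%. Of 7 tested pentose phosphate genes 0 passed early by limma, with 2 higher and 0 lower at an unadjusted p under 0.05, and 2 were higher and 3 lower late, among them H6PD (1.01), RPE (-0.72) and TALDO1 (-0.46). Of 11 genes for pyruvate entry to mitochondria 1 was higher and 2 lower early, and 4 higher and 3 lower late. PDK4, another kinase that inhibits pyruvate dehydrogenase, was higher late (1.41, adjusted p = 0.000353), in contrast to PDK3. Of 7 genes of the serine branch 2 were higher and 1 lower early, and 1 higher and 4 lower late, with MTHFD2 of mitochondrial folate metabolism at -1.15 (adjusted p = 3.87e-05). Of 9 regulators of glycolytic genes 0 passed early, with 1 lower unadjusted, and 3 were higher and 2 lower late, including TXNIP (1.39, adjusted p = 0.0297), which restrains glucose uptake, and MYCN (-0.96, adjusted p = 0.000743). H6PD and TXNIP each differed by -1.44 on day 0. With the day 0 gap subtracted H6PD (2.45), RPE (-0.865), TALDO1 (-0.75) and MYCN (-1.425) still passed late. PDK4 (1.56, adjusted p = 0.0832), MTHFD2 (-1.085, adjusted p = 0.064) and TXNIP (2.83, adjusted p = 0.0912) then did not.

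Markers of other cell types moved with these results. The counts here are to be read against 27.3% higher and 26.6% lower late over all tested genes. On days 4 to 7, 7 of 7 tested streak and mesoderm markers and 8 of 8 trophoblast and amnion markers were higher under BMP4, with the sums given above. Of 7 tested pluripotency markers 6 were lower, with sums of 10500 to 17200 in BMP4 cells and 27500 to 30600 in untreated cells. Of 5 tested fibroblast and matrix markers 4 were higher, with sums of 2660 to 19300 in BMP4 cells and 2140 to 2610 in untreated cells, where POSTN was not above the floor. Of 5 tested neural markers 3 were lower, with sums of 58.8 to 180 in BMP4 cells, where PAX6 and SIX3 were not above the floor, and 596 to 2220 in untreated cells. In untreated cells CDX2, GATA2, GATA3, TBXT and MIXL1 were not above the floor on those days. Of 9 genes of stress and RNA quality 4 were higher and 1 lower. The part of these markers in the enzyme and HIF results was not tested.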

How the data were processed

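Linear intensity values as deposited were used. The authors' intensities had been quantile normalized, as read from the values: all 16 arrays share a median of 128.3 and a highest value of 28353, and their log2 quantiles differ by at most 0.000129. The software is not given in the sources used here. Per the labels' protocols, Trizol RNA, freed of genomic DNA by DNase I, was amplified to biotin-labelled cRNA. Another 32 deposited columns (raw signals with their detection p-values) could be tied to no sample by their names and were not used, so background was estimated from the normalized values.

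The background was taken as symmetric about the main peak of 117.3, with an SD of 7.66 from the values under it, and its 99th percentile, 134.4, was set as detection floor; 42.5% of the probe values lay above it. The normexp model with that background, an offset of 16 and log2 followed, the offset making differences of dim genes smaller. The brightest probe represented a gene, and the gene was kept if that probe was above the floor on at least 3 arrays. Of 47323 probes, 30113 have 1 symbol in the platform annotation, 8 several and 17202 none there; 30074 were matched to the RefSeq table, which changed 0 symbols. Of 20046 named genes 13391 were tested.

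All 16 arrays entered 1 fit (limma 3.58.1, R 4.3.3) with a mean per arm and window and moderation with an intensity trend, tested on simulated data. Tests are two-sided, and p-values were adjusted by Benjamini-Hochberg over all tested genes. The number of arrays limits the precision. In each class the 3 members with the largest early and the 3 with the largest late difference past the threshold, or the 1 with the largest late difference where none passed, are given per array, and from each other list up to 3 by late difference. Other members were given per array as examples chosen after their values were seen. The members and lists were chosen with earlier results of these data known. Alternatives were no background correction, an offset of 32, no filter, a filter at 6 arrays, the mean over probes, housekeeping centring, no trend, a replicate block, other windows, subtraction of the day 0 gap and leaving out each array of days 1 to 7. The day 0 arrays were not left out.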

Additional observations from a re-analysis of the deposited data

Results flagged for a closer look

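Among the 68 groups of 4 late arrays tested for a single distant array, 3 had one by Dixon's criterion, and chance gives about 1 in 20. ALDOA stood at 13.4 on untreated day 7, with the other untreated late arrays at 13.23 to 13.26. ENO1 stood at 14.27 on BMP4 day 4, with the other BMP4 late arrays at 14.21 to 14.22. PFKFB4 stood at 10.84 on untreated day 7, with the other untreated late arrays at 9.33 to 9.51.

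For 6 members the difference between the arms itself differed between the windows, by limma over all tested genes. Of all tested genes 4.93% shifted upward and 4.31% downward. The late minus early difference was 1.73 for P4HA1, 1.65 for P4HA2, 1.06 for PFKP and 0.65 for ALDOC, and it was -1.51 for EGLN3 and -0.82 for PDK3. The P4HA1 value was 1.51 without BMP4 day 2 or untreated day 3 (adjusted p = 0.0544 and 0.0517), and the ALDOC value was 0.56 without BMP4 day 2 (adjusted p = 0.0566). For PDK3 the mean over its probes gave -0.40 (adjusted p = 0.159).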

How the results depend on the processing

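Subtracting the day 0 gap, which rests on 1 array per arm, changed the results most: members called lower went to 1 early and 3 late, against 19 in each window, and those higher early to 0. It turned the direction of 12 early calls: GPI 0.43, PFKL 0.60, ALDOA 0.48, PGK1 0.16, PGAM1 0.16, ENO2 0.21, PKM 0.79, LDHA 0.14, BNIP3 0.083, BNIP3L 0.16, EGLN1 0.44 and EGLN3 -0.40, with none past the threshold. It turned 9 late calls: GPI 0.47, PFKL 0.77, ALDOA 0.78, PGK1 0.46, PGAM1 0.27, ENO2 0.015, PKM 1.03, ANKRD37 0.085 and BNIP3 1.00, of which ALDOA (adjusted p = 0.00686) and PKM (adjusted p = 0.00818) passed as higher. The cause was not tested. No other alternative turned the direction of a member called in any of the 5 comparisons.

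With windows of days 1 to 2 and 5 to 7, 2 members were higher early and 1 (BNIP3) was higher late in untreated cells, while early ENO2 (-0.44) and SLC2A1 (-0.48) and late PFKL (-0.28) and PKM (-0.31) lost their calls, leaving 17 lower early; over all tested genes the shift between windows was then called for 2261, against 1237, and untreated drift for 121, against 10. With the mean over probes 1 member fell between windows, against 2, and the median enzyme gap averaged over days 4 to 7 was -0.435, against -0.39. Housekeeping centring gave enzyme gaps of -0.632 over days 1 to 3 and -0.512 over days 4 to 7, against -0.535 and -0.39. Without background correction the median HIF gaps were -0.63 on day 0, -0.67 early and -0.29 late, against -1.16, -1.06 and -0.56, and untreated drift was called for 1 gene; this setting compresses dim genes by construction.

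The replicate block by day called 7 members higher in the late minus early difference, against 4, adding NDRG1, BNIP3 and BNIP3L, and 27 genes in untreated drift. It called 21 members lower and 6 higher late, adding LDHA (-0.25, adjusted p = 0.0448), EGLN1 (-0.59, adjusted p = 0.0249) and P4HA1 (0.40, adjusted p = 0.0235), and added PFKFB3 (0.54) and KDM3A (0.69) to the rises within BMP4 cells. The numbers share only a day: deviations of same-day arrays correlated at -0.04 to 0.28 over 7 days.

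Leaving out 1 array of days 1 to 7 gave 1 to 2 members higher and 16 to 20 lower early, 4 to 6 higher and 18 to 21 lower late, 2 to 6 higher and 2 to 3 lower between windows, 12 to 16 rising and 1 to 4 falling within BMP4 cells, and 0 in untreated drift. The 2 came without BMP4 day 2, the 1 falling without BMP4 day 1, day 5 or day 6, and the second early higher member, SLC2A3, without untreated day 3, day 5 or day 7. Single arrays per day, unknown signal noise per array and levels near the floor (EGLN1, EGLN3, KDM3A, ANKRD37) limit these values.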
